A study of Homo sapiens with 9 samples.

Results

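The genes of 9 transcription factors that direct the myeloid lineage were followed in MOLM13 cells under a pair of cereblon-binding drugs. They are the C/EBP genes CEBPA, CEBPB, CEBPD and CEBPE, the PU.1 gene SPI1, IRF8, MAF, KLF4 and GFI1. The members were taken by their symbol from the deposited tables, which held 1 row for each of the 9 among 59559 rows that name a gene. MOLM13 is an established human line of acute myeloid leukaemia whose KMT2A gene is rearranged and whose FLT3 carries an internal duplication. The cells received the solvent DMSO, 1 µM iberdomide (CC-220) or 50 nM mezigdomide (CC-92480) for 72 h, with 3 libraries in each of the 3 groups. All groups share the same parental line and the solvent DMSO, and the treatment field of the mezigdomide samples spells its code CC-92840. Poly(A) RNA was sequenced with 37 bp paired-end reads. The values below are the authors' comparisons of each drug with DMSO, which hold no value per library, so the replicate spread enters only through the standard error (SE). The labels do not say that the 3 libraries of a group were separate cultures, so a p-value here measures the spread between libraries, which may be technical.

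As background, these factors act as a hierarchy in myeloid development. PU.1 and C/EBP alpha open the myeloid programme in progenitors, and C/EBP epsilon drives late granulocyte maturation, in neutrophils and eosinophils. IRF8 works with PU.1 on composite sites and favours monocytes over granulocytes, and KLF4 acts after it in monocyte formation. GFI1 is a repressor that favours granulocytes, MAF is a large bZIP factor of resident macrophages, and C/EBP beta and C/EBP delta serve stress and cytokine responses. Iberdomide and mezigdomide direct the cereblon ubiquitin ligase to the zinc finger factors IKZF1 and IKZF3, themselves regulators of blood lineages.

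Stretches before the start sites are shown for 3 genes that were called in at least 1 comparison. CEBPE fell most, KLF4 rose most, and CEBPA stands back to back with a transcript that also rose. The sequences are from RefSeq (GRCh38.p14), written 5′ to 3′ on the gene's strand, and capitals mark GAGGAA, the core of a PU.1 site. Bases within the annotated CEBPA exon (GENCODE 29) were left out of its stretch. The KLF4 stretch is the whole window and was not checked for exons. It lies inside the GENCODE 29 span of KLF4, which runs on to 107490482. The short CEBPE stretch lies in the first exon of the GENCODE 29 model.
KLF4, 9:107489770-107490019, minus strand: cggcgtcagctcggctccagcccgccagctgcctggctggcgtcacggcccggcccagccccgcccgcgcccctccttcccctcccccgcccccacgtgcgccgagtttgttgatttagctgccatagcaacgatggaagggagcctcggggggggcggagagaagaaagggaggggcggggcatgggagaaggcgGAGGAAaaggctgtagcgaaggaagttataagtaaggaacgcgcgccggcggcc
CEBPA, 19:33302565-33302784, minus strand: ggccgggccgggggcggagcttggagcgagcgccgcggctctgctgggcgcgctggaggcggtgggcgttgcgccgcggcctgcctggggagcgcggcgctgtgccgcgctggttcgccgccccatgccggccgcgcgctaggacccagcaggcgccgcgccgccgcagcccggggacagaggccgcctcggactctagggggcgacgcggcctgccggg
CEBPE, 14:23119280-23119307, minus strand: cattgactacaGAGGAAggaaaaggaag

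Of the 9 members 7 were searched, with 11 RefSeq windows between them matched by symbol. Windows on chromosome 8 were left out of this search, and with them CEBPD, while SPI1 had no window. The 250 bases before the RefSeq start were searched on both strands. GAGGAA was found 54 to 49 bases before the KLF4 start and 41 to 36 bases before the CEBPE start, as well as 30 to 25 bases before 1 of the GFI1 starts, and 23.6% of all 35116 windows hold it. The CEBPE window also held the AP-1 motif TGANTCA (6.57% of windows) and the Ikaros core TGGGAA (20.8% of windows). The Ikaros core was also found in 1 GFI1 window and in both IRF8 windows, which overlap and share 1 and the same match. Both IRF8 windows precede RefSeq starts (85902830 and 85903015) that lie inside the span of IRF8, which begins at 85898803. The bases before 85898803 were not searched. The GFI1 window with the GAGGAA and Ikaros matches (92483815 to 92484064, minus strand) also lies inside the span of GFI1, which runs on to 92486876. The KLF4 and CEBPA windows held GC boxes, GGGCGG (42.6% of windows), and the CEBPA window a TATAAA 30 to 25 bases before the start (10.7% of windows). A match of such short letters is a description of the window and not a site.

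Under iberdomide, 5 of the 8 members tested passed an adjusted p of 0.05, 3 higher and 2 lower. Of all 19497 genes tested 14.1% were called, 7.3% higher and 6.77% lower. Under mezigdomide 4 of 8 passed, 2 higher and 2 lower. Of 20819 genes tested 21.2% were called, 10.4% higher and 10.7% lower. The 8 members tested had means of 198.0 to 11673 normalised counts. Among genes with a mean of at least 100, the share called was 19.3% under iberdomide and 30.9% under mezigdomide. MAF did not pass the authors' filter on low counts and has no adjusted p. The median log2 fold change of the 8 was 0.09 under iberdomide and 0.11 under mezigdomide, beside -0.0095 and -0.0070 over all genes tested.

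**Figure D1:**
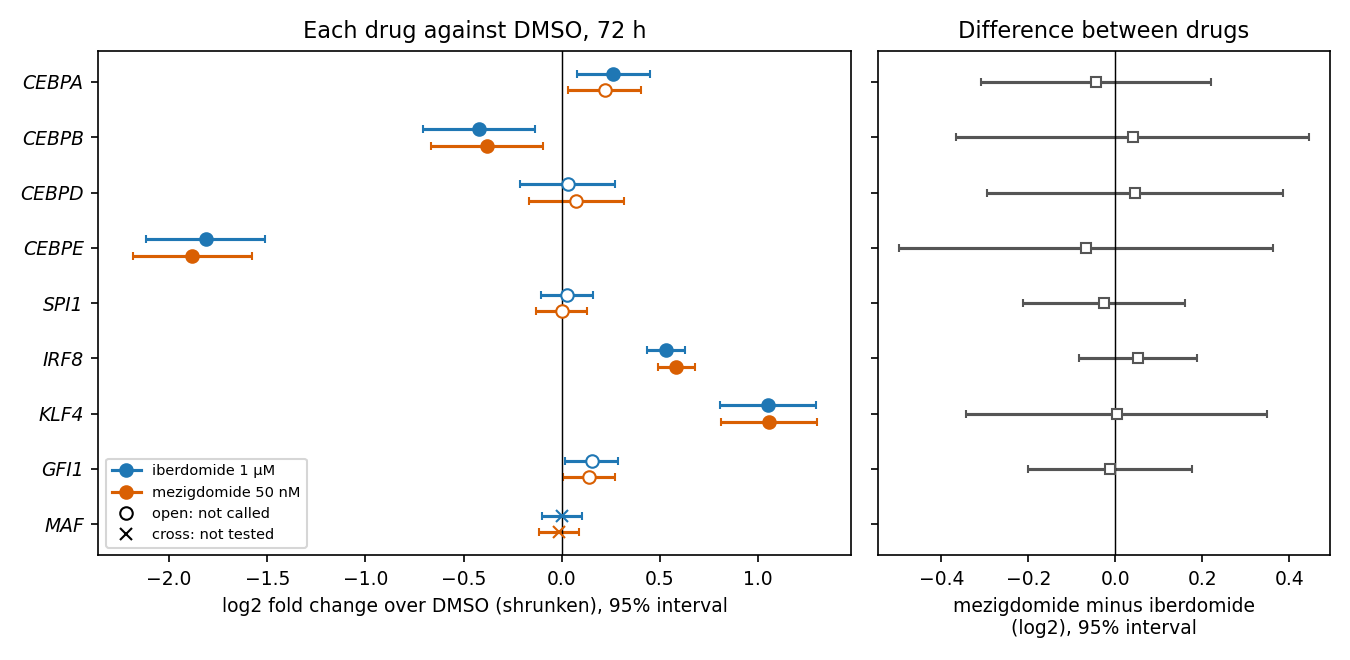
Log2 fold change over DMSO (left, shrunken, x axis) and its difference between the drugs (right) for each factor, with 95% intervals from the SE; filled points passed the adjusted p and MAF (crosses) was not tested. CEBPE lies far to the left and KLF4 and IRF8 to the right under both drugs, and each of the 8 intervals of the difference spans 0.

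CEBPE, the gene of the late granulocyte regulator (ENSG00000092067, chromosome 14, 23117304 to 23119616, 2 exons, GRCh38), fell most. In the authors' deposited table its log2 fold change was -1.81 (SE 0.16) under iberdomide, 28.4% of the DMSO level (95% interval of the fold 0.230 to 0.351, Wald test, Benjamini-Hochberg adjusted p = 2.0e-29). Under mezigdomide the authors' deposited table gives -1.88 (SE 0.15), 27.1% of the DMSO level (interval 0.220 to 0.335, adjusted p = 6.0e-32). A level for each condition was estimated from the overall mean and the 2 fold changes. For CEBPE it was 382.0 normalised counts in DMSO, 108.6 under iberdomide and 103.6 under mezigdomide, so both treated levels stood well under the DMSO level. These estimates rest on shrunken fold changes and are approximate. In bulk RNA, fewer cells of a type and less RNA per cell cannot be told apart.

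CEBPA, the founder of the myeloid programme (ENSG00000245848, chromosome 19, 33299934 to 33302564, 1 exon), moved little. The authors' deposited table gives 0.26 (SE 0.095) under iberdomide, a 1.2-fold rise (adjusted p = 0.0433). Under mezigdomide it gives 0.22 (SE 0.095), which did not pass (adjusted p = 0.0893) in the authors' deposited table. With no filter on low counts the iberdomide call was also lost (adjusted p = 0.0780). With a trend of GC content and length taken out CEBPA passed under both drugs (0.40 and 0.44). Its estimated level was 5769 normalised counts in DMSO, 6918 under iberdomide and 6709 under mezigdomide. CEBPA-DT, a non-coding RNA that starts 292 bases from CEBPA and runs the other way, was looked at after its values were seen. It stood at 0.50 under iberdomide (adjusted p = 0.00147) and 0.50 under mezigdomide (adjusted p = 0.00117) in the authors' deposited table, both higher than DMSO. The antisense genes that cover 43.4% of CEBPA's exon bases, AC008738.3 and AC008738.5, are listed at 0. The kit is not stated to keep strand, so reads of CEBPA and these antisense genes cannot be told apart.

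CEBPB, which serves emergency and macrophage responses (ENSG00000172216, chromosome 20, 50190734 to 50192689, 1 exon), was lower. The authors' deposited table gives -0.42 (SE 0.15) under iberdomide, 74.7% of the DMSO level (adjusted p = 0.0318). Under mezigdomide it gives -0.38 (SE 0.15), 76.8% of the DMSO level (adjusted p = 0.0446), in the authors' deposited table. Both calls are close to the threshold and were lost with no filter on low counts (adjusted p = 0.0575 and 0.0756) and with a trend of GC content and length taken out (-0.26 and -0.11, adjusted p = 0.317 and 0.680). The mezigdomide call was also lost after centring (-0.37, adjusted p = 0.0555). CEBPB-AS1, which covers 11.8% of its exon bases on the opposite strand, has a mean of 11.05 normalised counts. It stood at -0.49 (adjusted p = 0.164) and -0.55 (adjusted p = 0.0733) by the authors' deposited table.

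CEBPD, an acute-phase member of the family (ENSG00000221869, chromosome 8, 47736909 to 47739086, 1 exon), did not pass. The authors' deposited table gives 0.029 (SE 0.12, adjusted p = 0.943) under iberdomide and 0.074 (SE 0.12, adjusted p = 0.763) under mezigdomide. The 95% intervals were 0.864- to 1.21-fold and 0.891- to 1.24-fold.

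Per kilobase of exon, CEBPA was the most abundant C/EBP gene in each condition, and the order of the family was CEBPA, CEBPD, CEBPG, CEBPB and CEBPE throughout. These are estimated levels with no spread per library, so neighbours in the order were not tested. CEBPA made up 43.2% of the summed level of these 5 genes in DMSO, 49.9% under iberdomide and 48.4% under mezigdomide. The share of CEBPE was 4.84% in DMSO, 1.33% under iberdomide and 1.26% under mezigdomide. The ratio of the CEBPA to the CEBPE level per kilobase thus went from 8.92 to 37.6 and 38.3.

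SPI1, the PU.1 gene (ENSG00000066336, chromosome 11, 47354860 to 47378576), had the highest level per kilobase of the 9 and did not pass. The authors' deposited table gives 0.026 (SE 0.067, adjusted p = 0.897) under iberdomide and -0.00064 (SE 0.067, adjusted p = 0.997) under mezigdomide. The 95% intervals, 0.929- to 1.12-fold and 0.913- to 1.09-fold, bound the change of this gene closely on this scale. With the GC and length trend taken out both values passed, at 0.20 (adjusted p = 0.0285) and 0.28 (adjusted p = 0.000408).

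IRF8, the partner of PU.1 in monocyte formation (ENSG00000140968, chromosome 16, 85898803 to 85922609), rose under both drugs. In the authors' deposited table it stood at 0.53 (SE 0.049) under iberdomide, a 1.44-fold rise (interval 1.35 to 1.54, adjusted p = 1.1e-25). Under mezigdomide it stood at 0.58 (SE 0.049), 1.5-fold (interval 1.40 to 1.60, adjusted p = 3.3e-31), in the authors' deposited table. The estimated level was 8881 normalised counts in DMSO, 12832 under iberdomide and 13307 under mezigdomide. Its SE was the smallest among the 8 members tested. IRF8 made up 52.7% of the summed level per kilobase of the 9 IRF genes in DMSO, 61.4% under iberdomide and 62.7% under mezigdomide.

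KLF4, a zinc finger factor of monocytes (ENSG00000136826, chromosome 9, 107484852 to 107490482), roughly doubled. The authors' deposited table gives 1.05 (SE 0.12) under iberdomide, a 2.07-fold rise (interval 1.75 to 2.46, adjusted p = 2.5e-15). Under mezigdomide it gives 1.05 (SE 0.12), 2.08-fold (interval 1.75 to 2.46, adjusted p = 1.1e-15), in the authors' deposited table. It was the least abundant tested member in DMSO, at an estimated 130.5 normalised counts, and rose to 270.5 under iberdomide and 271.0 under mezigdomide. Within the KLF family it was number 10 of 17 by level per kilobase in DMSO and number 9 under each drug.

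GFI1, the granulocyte repressor (ENSG00000162676, chromosome 1, 92474762 to 92486876), did not pass. The authors' deposited table gives 0.15 (SE 0.068, adjusted p = 0.135) under iberdomide and 0.14 (SE 0.068, adjusted p = 0.143) under mezigdomide. The intervals of the fold were 1.01 to 1.22 and 1.00 to 1.21. With the GC and length trend taken out it passed under mezigdomide (0.20, adjusted p = 0.0241) and narrowly missed under iberdomide (0.18, adjusted p = 0.0502). MAF (ENSG00000178573, chromosome 16, 79585843 to 79600714) was near absent, with a mean of 0.223 normalised counts. That mean equals 1 read in each of 2 libraries after scaling and averaging, the only solution with up to 5 reads, so 2 reads fell on MAF among all 9 libraries. At this depth no change of MAF was detectable.

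**Figure D2:**
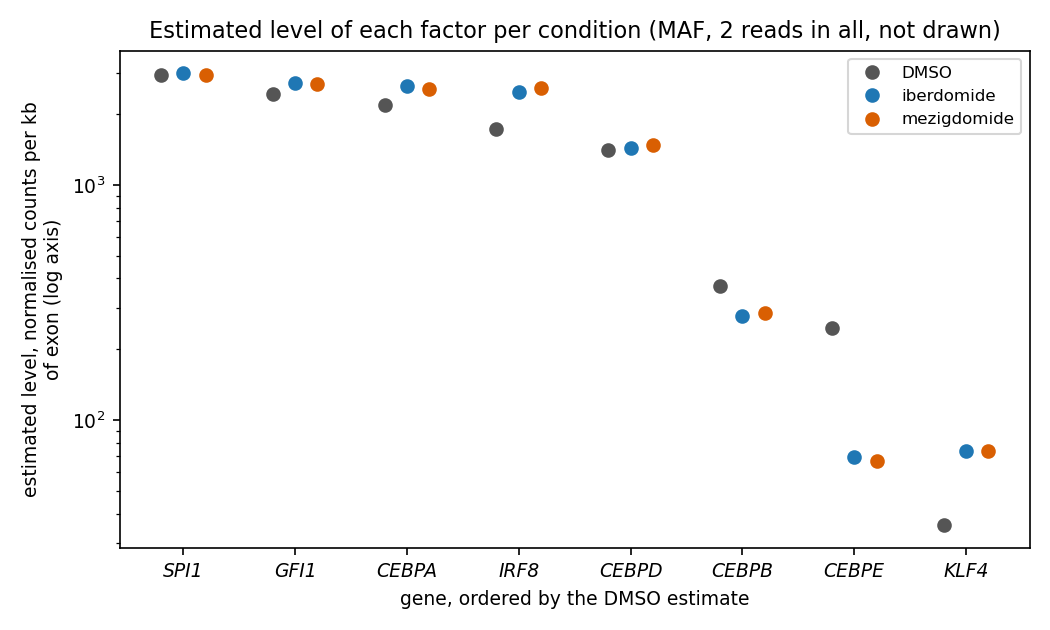
Estimated level of the 8 tested factors in normalised counts per kilobase of exon (log y axis) in each condition, 1 point per condition with no spread per library. SPI1, GFI1, CEBPA, IRF8 and CEBPD lie at 1405 or more in all conditions, while KLF4 goes from 35.7 in DMSO to 73.9 and 74.1 and CEBPE from 245.8 to 69.9 and 66.7.

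Per kilobase the order in DMSO was SPI1 (2925), GFI1 (2431), CEBPA (2193), IRF8 (1720), CEBPD (1405), CEBPB (369.4), CEBPE (245.8) and KLF4 (35.7), as estimated normalised counts. By overall mean per kilobase the first 5 stood between percentile 96.1 (CEBPD) and 98.8 (SPI1) of the genes tested under both drugs, and KLF4 stood at percentile 49.0. In both treated conditions the estimate of KLF4 (73.9 and 74.1) lay above that of CEBPE (69.9 and 66.7). These gaps are small, have no spread and were not tested. Under mezigdomide the estimate of IRF8 (2578) lay above that of CEBPA (2550), a gap too small to read without a spread.

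The drugs were compared at unequal doses, iberdomide at 20 times the concentration of mezigdomide, so a difference here is between these treatments and not between the compounds. No member passed between them in a two-sided normal test of the difference with errors taken as independent (0 of 8 at an adjusted p of 0.05 and 0 of 8 at an unadjusted p of 0.05), where 0.108% of 19497 genes did. The largest difference was in CEBPE, -0.068 (mezigdomide minus iberdomide, log2), with a 95% interval of 0.708- to 1.29-fold. With the GC and length trend taken out the CEBPE difference turned to 0.021, and the largest were then CEBPD at 0.17 and CEBPB at 0.14, none of them called. For IRF8 the difference was 0.052 (interval 0.945- to 1.14-fold) and for KLF4 0.0030 (0.789- to 1.27-fold). Over the 8 members the lowest bound was 0.708-fold, in CEBPE, and the highest 1.36-fold, in CEBPB. A difference within a gene's own interval was not detectable with errors taken as independent. The shared DMSO libraries make that SE an upper limit, so these intervals may be too wide. Both comparisons share the DMSO libraries, so their values are given side by side and their likeness is no independent result.

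Genes whose pair of fold changes lay nearest to a called member were taken from those called in the same tables with a mean of at least 100. The measure is the Euclidean distance over 2 log2 fold changes (3 conditions). Nearest to CEBPE were ALDH1A3 (distance 0.092), PKDCC (0.13) and TK2 (0.19). For KLF4 they were TAX1BP3 (0.031), ACOT11 (0.049) and SHTN1 (0.058), and for IRF8 they were CITED2 (0.0050), GSDME (0.0059) and PPM1E (0.013). CEBPB was nearest to LPCAT1, DCUN1D3 and CHST14 (0.012 to 0.018), and CEBPA to PHC2, PSMA3-AS1 and SLC25A16 (0.0036 to 0.016).

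The relatives and partners of the members were read from 7 lists. Of all genes tested 14.1% were called under iberdomide and 21.2% under mezigdomide. Among genes with a mean of at least 100 the shares were 19.3% and 30.9%. The lists were chosen with earlier results of these data known. Their counts are thus a description and no result about these families. Among C/EBP partners and TRIB regulators, 3 of 5 tested genes were lower and 0 higher under each drug, with medians of -0.27 and -0.44. TRIB3 stood at -0.83 and -0.90 and DDIT3, the stress-induced C/EBP relative also called CHOP, at -0.72 and -0.95 in the authors' deposited table. ATF4 stood at -0.27 and -0.44, while CEBPG (-0.018 and 0.043) and TRIB1, which targets C/EBP alpha for degradation (0.13 and -0.16), missed the threshold in the authors' deposited table. The ATF4 call under iberdomide was lost with the GC and length trend taken out (-0.21, adjusted p = 0.131).

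Among ETS, RUNX and MYB factors, 1 of 12 was higher and 3 were lower under iberdomide, and 2 of 13 were higher and 3 lower under mezigdomide. ETS1 rose 3.44-fold and 3.7-fold (1.78, SE 0.10, and 1.89, SE 0.10), and SPIB, the lymphoid paralog of PU.1, stood at -1.54 and -1.75 in the authors' deposited table. RUNX3 (-0.60 and -0.73) and ETS2 (-0.34 and -0.31) were lower in the authors' deposited table. MYB (-0.091 and -0.071) and ELF1 (-4.0e-05 and 0.12) missed the threshold in the authors' deposited table. FLI1, named after its values were seen, was the other gene higher under mezigdomide (0.18), and that call was lost with the trend taken out (0.076, adjusted p = 0.399). The ratio of SPI1 to SPIB per kilobase went from 45.4 in DMSO to 134.8 and 153.3.

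Of the other IRF genes and their partner BATF3, 1 of 8 was higher and 2 were lower under iberdomide, and 1 was higher and 3 lower under mezigdomide. IRF5, a macrophage member, was higher (0.50 and 0.56), while IRF1 (-0.64 and -0.76) and BATF3 (-0.70 and -1.04) fell in the authors' deposited table. IRF3 was lower under mezigdomide (-0.27) and did not pass under iberdomide (-0.13) in the authors' deposited table, and its call was lost with the trend taken out (-0.18, adjusted p = 0.156). IRF2 (-0.0061 and 0.045) and IRF7 (-0.14 and -0.12) missed the threshold in the authors' deposited table.

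Of the other KLF genes, 3 of 13 were higher and 1 lower under iberdomide, and 3 were higher and 3 lower under mezigdomide. KLF15 rose 2.93-fold and 3.09-fold (1.55 and 1.63) and KLF5 2.05-fold and 2.74-fold (1.04 and 1.45), while KLF2, a factor of quiescence, fell by 0.78 and 1.04 in the authors' deposited table. KLF13 passed under mezigdomide (0.39) and not under iberdomide (0.25), and KLF16 (-0.023 and -0.18) and KLF10 (0.24 and 0.15) missed the threshold, in the authors' deposited table. With the trend taken out KLF13 no longer passed (0.34, adjusted p = 0.0694). The other called genes, named after their values were seen, were KLF9 under iberdomide (0.35) and KLF6 (-0.31) and KLF11 (-0.33) under mezigdomide in the authors' deposited table. The KLF9 call was lost with the trend taken out (0.29, adjusted p = 0.0574), and KLF11 then also passed under iberdomide (-0.34).

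Of the 6 other MAF genes, MAFF was called, lower under each drug (-0.57 and -0.68), in the authors' deposited table. MAFG (0.070 and 0.11) and MAFK (-0.12 and -0.21) missed the threshold in the authors' deposited table.

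Of the GFI1 paralog and corepressor genes, 0 of 7 passed the Wald test under iberdomide (2 at an unadjusted p of 0.05, GFI1B and HDAC1). Under mezigdomide 1 passed, RCOR2 (-0.61), in the authors' deposited table. HDAC1 (0.12 and 0.11) and HDAC2 (0.13 and 0.10) missed the threshold in the authors' deposited table.

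Of 13 other monocyte and macrophage factors, 2 were higher and 1 lower under iberdomide, and 3 were higher and 5 lower under mezigdomide. NR1H3, the liver X receptor alpha gene, rose 4.05-fold and 3.79-fold (2.02 and 1.92) and TFEC, a macrophage factor of the MITF family, 2.19-fold and 2.53-fold (1.13 and 1.34) in the authors' deposited table. EGR2 fell by 0.77 and 0.91 and NR4A1 passed under mezigdomide (-0.65) and not under iberdomide (-0.47) in the authors' deposited table. ZEB2 (0.087 and 0.070) and ID2 (0.18 and -0.080) missed the threshold in the authors' deposited table. The other genes called under mezigdomide, named after their values were seen, were EGR1 (-0.62), BHLHE40 (-0.55), RARA (-0.36) and VDR (0.25) in the authors' deposited table. Among genes with a mean of at least 50, or protein-coding genes only, NR4A1 and RARA also passed under iberdomide, so that 5 of these factors were called and not 3.

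**Figure D3:**
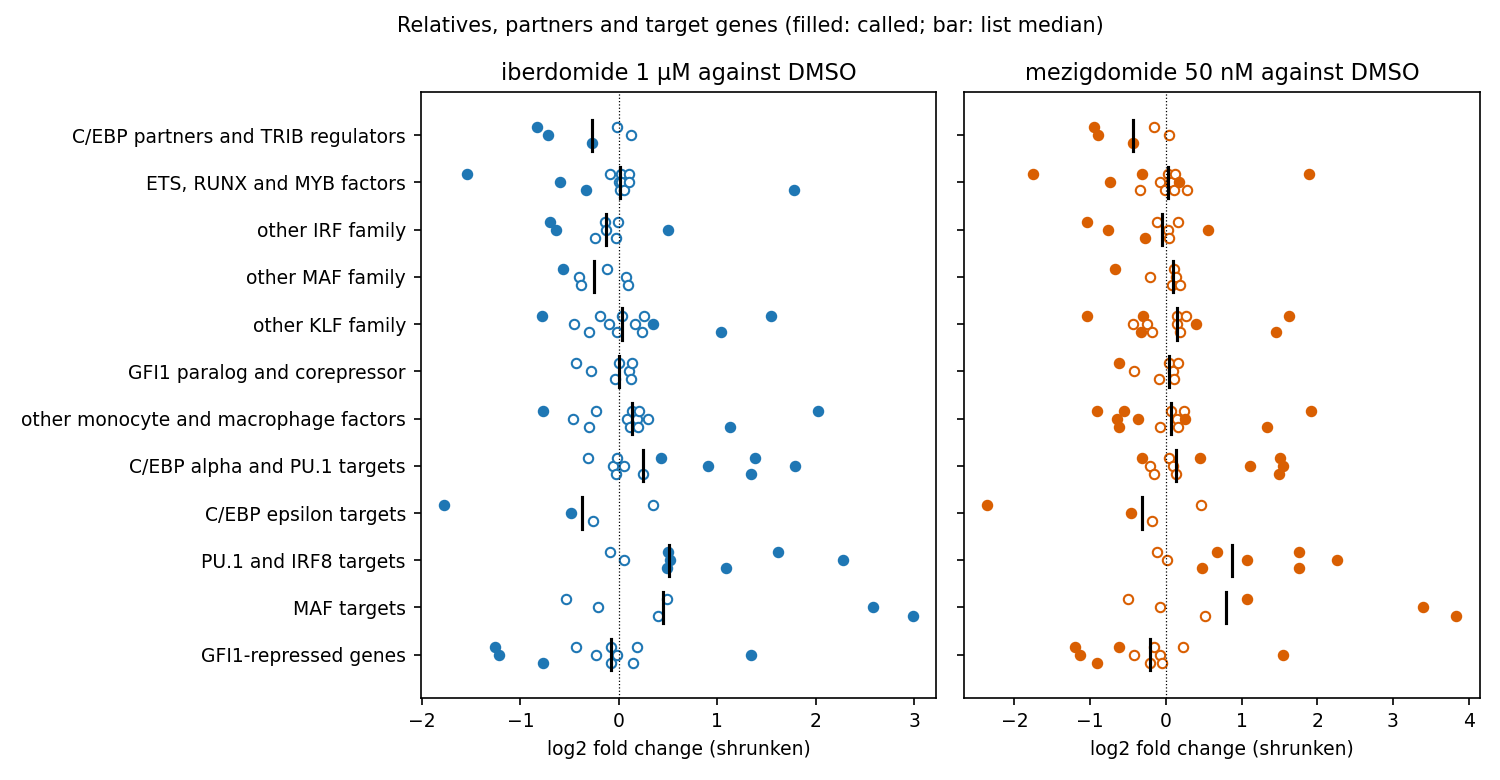
Log2 fold change over DMSO (x axis) of each tested gene in the 12 lists of relatives, partners and targets under each drug; filled points passed the adjusted p and the bar is the list's median. PU.1 and IRF8 targets have medians of 0.51 and 0.88, and the tested C/EBP epsilon targets medians of -0.37 and -0.32.

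Known targets of the members were read from 5 lists, by count and median beside the background given above. The choice of the lists followed earlier results of these data, so their direction is a description. Among PU.1 and IRF8 targets, 6 of 8 were higher and 0 lower under each drug. CYBB, the phagocyte oxidase subunit with a composite PU.1 and IRF site, rose 4.85-fold and 4.81-fold (2.28 and 2.27) in the authors' deposited table. PRDM1 (1.62 and 1.76) and CIITA (1.09 and 1.76) were higher in the authors' deposited table. CST3 (0.52 and 0.48) and NF1 (0.49 and 0.68) were also higher and were named after their values were seen, in the authors' deposited table. The NF1 call under iberdomide was lost with no filter on low counts (adjusted p = 0.0515) and with the trend taken out (0.36, adjusted p = 0.175), which left 5 of the list called. The protease CTSS (-0.093 and -0.12) and PML (0.053 and 0.019) missed the threshold in the authors' deposited table.

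Among C/EBP alpha and PU.1 targets, 5 of 11 were higher and 0 lower under iberdomide, and 5 were higher and 1 lower under mezigdomide. CD14 stood at 1.79 and 1.49, CSF1R, the receptor of macrophage colony-stimulating factor, at 1.34 and 1.54, and lysozyme LYZ at 1.39 and 1.51 in the authors' deposited table. MPO, myeloperoxidase, stood at 0.91 and 1.11, whereas the other primary granule genes PRTN3 (-0.033 and -0.15) and ELANE (-0.015 and -0.21) missed the threshold in the authors' deposited table. CSF3R (0.42 and 0.45) was also higher and AZU1 lower under mezigdomide (-0.31) in the authors' deposited table, both named after their values were seen. The AZU1 call was lost with the trend taken out (-0.087, adjusted p = 0.554). CD14 had a mean of 40.1 normalised counts, and LYZ one of 23353.

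Of the 9 C/EBP epsilon targets 4 were tested, since LTF, LCN2, MMP8, CRISP3 and DEFA4 had means of at most 1.00 normalised count. Of these 4, 2 were lower and 0 higher under each drug. EPX, the eosinophil peroxidase, stood at -1.78 (SE 0.092) and -2.36 (SE 0.093), 29.2% and 19.5% of DMSO, in the authors' deposited table. BPI was lower under iberdomide (-0.48) and not called under mezigdomide (-0.18), and the eosinophil granule gene PRG2 was lower under mezigdomide (-0.46) and not called under iberdomide (-0.26) in the authors' deposited table. CAMP (0.34 and 0.46, mean of 5.69 normalised counts) missed the threshold in the authors' deposited table. With the trend taken out CAMP passed under mezigdomide, as higher (0.63). EPX differed between the drugs by -0.58 (mezigdomide minus iberdomide, 95% interval -0.84 to -0.33, adjusted p = 0.00989).

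Of 11 MAF targets 6 were tested, and 2 were higher under iberdomide and 3 under mezigdomide. F13A1, the coagulation factor XIII A chain made by macrophages, rose 7.93-fold and 10.6-fold, and VSIG4, a complement receptor of resident macrophages, 5.97-fold and 14.3-fold, in the authors' deposited table. MRC1 passed under mezigdomide (1.07) and not under iberdomide (0.49), and STAB1 (0.40 and 0.51) and MSR1 (-0.54 and -0.50) missed the threshold in the authors' deposited table. With the trend taken out MSR1 passed under iberdomide, as lower (-0.57). The complement genes C1QA, C1QB and C1QC, the scavenger receptor CD163 and IL10 had means of at most 0.442 normalised counts.

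Of the genes that GFI1 represses, 1 of 11 was higher and 3 lower under iberdomide, and 1 was higher and 4 lower under mezigdomide. The higher one was CSF1R, given above. PIM1 fell by 1.21 and 1.13 and CSF1 by 1.26 and 1.21, and EGR2 and EGR1 are given above, in the authors' deposited table. ELANE, above, and CDKN1A (0.14 and 0.22) missed the threshold in the authors' deposited table. With the trend taken out CDKN1A passed under mezigdomide (0.33).

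Between the drugs 3 of 98 relatives and targets passed the normal test with independent errors, beside 0.108% of all 19497 genes. Since the lists were chosen with earlier results of these data known, this count describes the lists and is no sign of enrichment. They were VSIG4 at 1.26 (mezigdomide minus iberdomide, adjusted p = 0.00565), EPX at -0.58, given above, and RARA, the retinoic acid receptor alpha gene, at -0.66 (adjusted p = 0.0316). With an error correlation of 0.5 the count was 8. The share of all genes under that setting is not reported here, so the 8 are no result about these genes. RARA stood at 0.30 under iberdomide and at -0.36 under mezigdomide in the authors' deposited table, and the latter call was lost with the trend taken out (-0.21, adjusted p = 0.190). In that setting RARA passed under iberdomide (0.39). Its difference lost the call with no filter on low counts (adjusted p = 0.0573) and with the trend taken out (-0.60, adjusted p = 0.0954).

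The fold changes moved with base composition. Across 19210 genes the Wald statistic declined with GC content (Spearman rho = -0.194 under iberdomide and -0.227 under mezigdomide). Among the most GC-rich genes, those above 57.5% GC, the median log2 fold change was -0.091 and -0.13. The C/EBP members and SPI1 belong to them, with 62.9% GC in CEBPE to 70.0% in CEBPD, while IRF8 (52.0%), KLF4 (55.0%) and GFI1 (56.1%) do not. With a trend of GC content and longest transcript taken out, CEBPA stood at 0.40 and 0.44, with adjusted p of 0.000376 and 4.8e-05, and CEBPD at 0.25 (adjusted p = 0.210) and 0.42 (adjusted p = 0.00515). CEBPE stood at -1.68 and -1.66, IRF8 at 0.54 and 0.60 and KLF4 at 1.08 and 1.10, all still called. The part of base composition in these results was not tested.

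**Figure D4:**
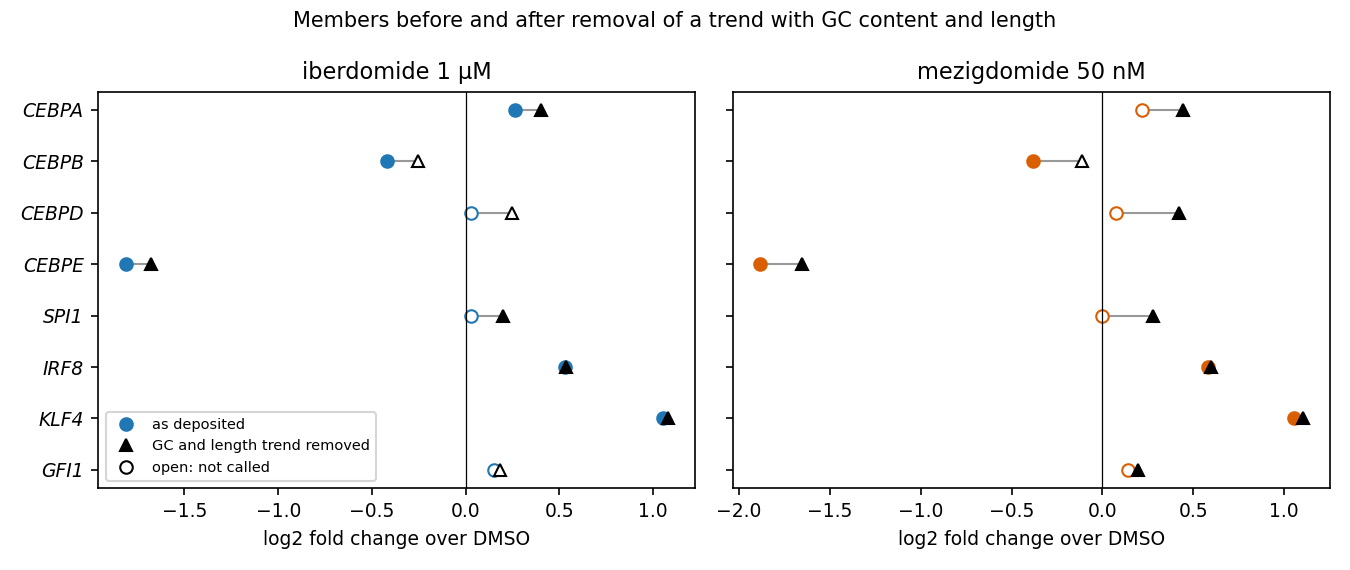
Log2 fold change over DMSO (x axis) of the 8 tested factors as deposited (circles) and with a trend of GC content and longest transcript taken out (triangles), filled where the adjusted p passed. CEBPA, CEBPB, CEBPD, CEBPE and SPI1 move to the right, while IRF8, KLF4 and GFI1 move by less than 0.06.

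Markers of the labelled cell type were present. Of 8 AML and myeloid markers, 7 reached a mean of 10 normalised counts, and CSF2RA, which lies in the region that chromosomes X and Y share, had 0.318. T cell markers summed to 0.677 to 0.682 normalised counts and 3 of 4 erythroid markers were at 0. Megakaryocyte markers summed to 20.2, 24.2 and 29.4 in DMSO, iberdomide and mezigdomide. Stroma and epithelium markers summed to 49.1, 126.5 and 133.5, with COL1A1 at 1.41 and 1.49 in the authors' deposited table, KRT5 at 0 and the other 2 at means of at most 1.31. The part of other cells in the results above was not tested. Where 10% or more of a gene's exon bases overlap another gene, its value is uncertain. Among the genes given values above this holds for CIITA, PRG2 and SPIB on the same strand and for CEBPA, CEBPB, CIITA, DDIT3, IRF1, IRF3, LYZ, MAFK, NR4A1, RARA and KLF16 on the opposite strand. It also holds for IRF9, which enters the IRF sum, for HOXA9 among the myeloid markers and for FCGR1A among the targets.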

How the data were processed

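RNA of 9 MOLM13 libraries in 3 groups of 3 was compared by the authors. DESeq2, HTSeq (0.6.1pl), SAMtools (1.95), Picard (2.9.4), STAR (2.7.5a), bcl2fastq (2.20.0.422) and the build GRCh38 (hg38) are listed, with no roles, per the submitters' processing notes. The annotation and how reads were counted by strand are not given in the sources used. Per the file headers, the deposited tables hold, for each drug against DMSO, a mean signal (counts divided by size factors), a log2 fold change with its SE, a Wald score, and the p-value before and after adjustment. Shrinkage of the log2 values shows in the deposited tables, where genes with 1 read have absolute values of at most 0.0132. The mean is identical in both tables, so both came from a fit of all libraries. Size factors recovered from 1-read genes were 0.889 to 1.08, not tied to groups. Multiplied by the summed mean counts they give a rough depth of 2.09e+07 to 2.53e+07 reads.

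Left out were 44 second copies on chromosome Y and 96 rows that name no Ensembl gene. Calls use the authors' adjusted p under 0.05. Levels per condition were estimated from the mean and both shrunken fold changes, and divided by exon length (GENCODE 29). The difference between drugs was tested as described, with independent errors, and adjusted over 19497 genes; the test was tried on simulated data. The members and the 12 lists were chosen with earlier results of these data known. In each list the 4 largest called changes and the 2 most abundant genes not called were named, plus, after their values were seen, the genes said so in the text, CEBPA-DT, CEBPB-AS1, RARA and genes listed at or near 0. Some named genes and the B cell markers are not reported here. Python 3.11.15, numpy 2.4.6, pandas 2.3.3 and scipy 1.17.1 were used.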

Additional observations from a re-analysis of the deposited data

How the results depend on the processing

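The alternatives were no filter on the mean, a mean of at least 50, protein-coding genes only, centred fold changes, removal of a GC and length trend (a cubic surface fitted to genes with a mean of at least 100) and, between drugs, an error correlation of 0.5. Reading the members at an unadjusted p was added after seeing the data and gave 6 under each drug. With no filter on the mean 3 members were called under iberdomide in place of 5, because more genes enter the adjustment. With the GC and length trend removed 7 were called under mezigdomide in place of 4. SPI1 went from -0.00064 to 0.28 there, and the cause was not tested. The share of all genes called under each alternative is not reported here. Counts under alternatives, here and above, thus describe the settings and are no result about the genes. Between drugs 0 members were called under every alternative. Against DMSO, CEBPE, IRF8 and KLF4 kept direction and call under both drugs in every alternative run. Of 128 values of members under alternatives 112 kept direction and call, 6 lost the call (in CEBPA and CEBPB), 4 gained it and 6 changed sign, of which only SPI1 under mezigdomide became called. Of 1511 values of the relatives and targets reported here 1447 kept both, 11 lost the call, 21 gained it and 32 changed sign, none of them called before or after. After centring the values that changed sign were SPI1 (0.013) and CBFB (0.0062) under mezigdomide and ELF1 (0.0080), IRF2 (0.0019) and RCOR3 (0.0064) under iberdomide. With the GC and length trend removed they were, under iberdomide, ETV6 (-0.010), RUNX1 (-0.061), CBFB (-0.0057), IRF7 (0.028), IRF9 (0.027), KLF3 (-0.027), KLF16 (0.14), ZEB2 (-0.023), ELANE (0.19), PRTN3 (0.17) and AZU1 (0.078). Under mezigdomide, besides SPI1, they were CEBPG (-0.019), ETV6 (-0.0057), RUNX1 (-0.077), IRF7 (0.15), KLF1 (0.025), KLF16 (0.078), RCOR3 (-0.021), HDAC2 (-0.093), ZEB2 (-0.12), ELANE (0.13), PRTN3 (0.18) and FOLR2 (0.052). Between drugs they were CEBPA (0.041), CEBPE (0.021), SPI1 (0.081), GFI1 (0.012), RUNX1 (-0.015), KLF12 (-0.064), HDAC1 (0.0026), PRTN3 (0.0080) and MEIS1 (-0.0072). No paired analysis was possible because the tables hold no value per library. Leaving out each replicate and another normalization or count test were not run for the same reason.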
